A study of Danio rerio with 12 samples.

Results

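The comparison described here is that of zebrafish larvae exposed to broflanilide at 10 µg/L, the high dose, with solvent control larvae kept in DMSO alone. It rests on 8 of the 12 libraries of the study, 3 of the high dose and 5 of the control. Its members are the genes with a mean read count of at least 10 over those 8 libraries, which were 18618 of the 25448 genes in the high-dose table and of 26255 genes in either dose's table. The remaining 4 libraries, of larvae at 1 µg/L, enter only where the low dose is named. Each library was made from poly(A) RNA of larvae. The labels name no mutation or transgene in any group. The sources used here do not give strain, larval age, exposure time or the number of larvae per library. Since the labels do not say that the libraries came from separate clutches or tanks, p-values measure the spread of these libraries alone, and that spread may be technical.

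Broflanilide is a meta-diamide insecticide that acts on GABA-gated chloride channels of insects, where it blocks the inhibitory current that GABA would open. Vertebrate GABA-A receptors are built from related subunits, and in larval fish they carry much of the fast inhibition in brain, spinal cord and retina. Cells that meet protein-damaging or metabolic stress often raise heat shock chaperones, such as Hsp90 and Hsp70, which fold client proteins, steroid receptors among them. Cells of the nervous system also have immediate early genes, which turn on soon after strong activity.

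Total counts ran from 11721400 to 15491747 in the controls and from 11920241 to 13865533 at the high dose, so depth did not separate the groups. Mitochondrial genes took 6.72% to 7.59% of counts in the controls and 5.95% to 7.54% at the high dose. The controls correlated no better with each other than with the treated libraries. Pearson correlations on the log scale were 0.839 to 0.939 among controls, 0.940 to 0.951 among high-dose libraries and 0.877 to 0.952 between groups. Controls 3 and 2 lay at opposite ends of the first principal component, which held 35.2% of the variance, and the 3 high-dose libraries lay between them. Of 33 organ markers, 28 were among the genes tested. They included neuronal elavl3 and snap25a, retinal gnat1, hepatic fabp10a, pancreatic prss1 and muscle tnnt3b, all detected in each of the 8 libraries, which fits RNA of whole larvae. In such bulk RNA, fewer cells of a type and less RNA per cell cannot be told apart.

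No gene passed a Benjamini-Hochberg adjusted p of 0.05 in edgeR's quasi-likelihood test, 0% of 18618 genes, and the smallest adjusted p was 0.234. An unadjusted p under 0.05 was reached by 373 genes, 2.00% of those tested. Of these, 200 genes (1.07% of those tested) were higher and 173 (0.929%) were lower at the high dose. The count of 373 was 805 without control 2, 562 without control 3 and 170 without high-dose library 3. All 3 high-dose libraries lay above every control for 258 genes (1.39%) and below every control for 201 genes (1.08%). Over all genes tested, the median log2 fold change was -0.00, and the median half-width of the genes' 95% intervals was 0.73. A log2 fold change of at least 1 in size was seen for 253 genes upward (1.36%) and 314 downward (1.69%). Most of those had low counts, with 212 of the 253 and 272 of the 314 at a mean count under 50.

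Other tests of the same counts called a few genes. DESeq2 called 4 (0.0215%), namely gar1, si:ch211-236p5.3, hsp90aa1.2 and rps15, and limma with sample quality weights called 2 (0.0107%), hsp90aa1.2 and rps15. The authors' deposited table held the same 4 genes past its threshold, 0.0157% of 25448 genes, and 571 genes at an unadjusted p under 0.05 (2.24%). Its adjusted p was 3.04e-06 for rps15, 7.52e-06 for hsp90aa1.2, 0.00688 for gar1 and 0.0172 for si:ch211-236p5.3. Apart from hsp90aa1.2 and rps15, each gene named below had an adjusted p of 1 in edgeR, so the values that follow describe leanings and not called changes. Levels are in CPM, read counts scaled for library size with TMM over the 8 libraries, and log2 fold changes are of the high dose against the control, with their standard error (SE).

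**Figure D1:**
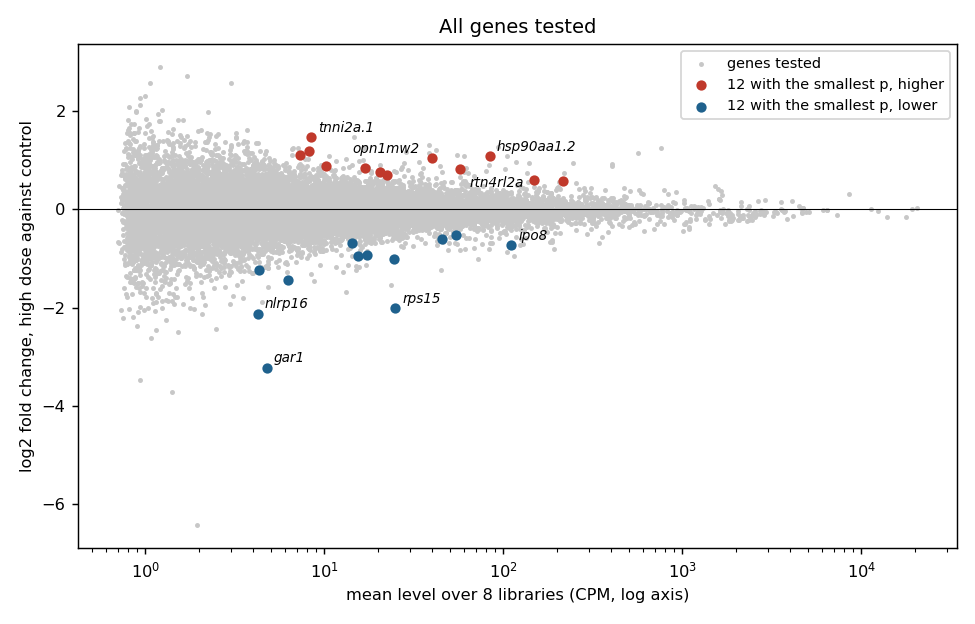
Log2 fold change of the high dose against the control (vertical axis) by mean level over the 8 libraries in CPM (log axis) for the 18618 genes tested, 1 point a gene. Red and blue points are the 12 genes higher and the 12 lower with the smallest p among genes with a standard symbol and a mean count of at least 50, and the first 4 of each are named; hsp90aa1.2 at 1.09 and rps15 at -2.02 lie at the edge of the spread of genes at similar levels.

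The chaperone gene hsp90aa1.2 gave the smallest p of all genes. It encodes a cytosolic Hsp90 of the alpha type and lies on chromosome 20 at 53967350 to 53981626 (GRCz11). Its level was 55.0, 64.6, 55.9, 60.6 and 58.5 CPM in controls 1 to 5. At the high dose it was 114, 117 and 145 CPM. The highest control was thus well under the lowest treated library, and the controls were close to each other. The log2 fold change was 1.09 (SE 0.15), with an adjusted p of 0.234 in edgeR. It lay between 0.97 and 1.15 when each library was left out in turn, so no library set it.

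The other Hsp90 genes had smaller values. The neighbouring copy hsp90aa1.1, which in zebrafish serves myosin folding in muscle, lies 0.7 kb away and had a log2 fold change of 0.04 (SE 0.39), with 6.62 to 29.2 CPM in controls and 13.3 to 21.8 CPM at the high dose. The constitutive hsp90ab1 had 2971 to 4865 CPM in controls and 3753 to 4859 CPM at the high dose, a log2 fold change of 0.17 (SE 0.24). Per length, hsp90ab1 was by far the most abundant of these genes, at 695 ± 140 FPKM in controls (SD, n = 5) against 18.9 ± 1.25 FPKM for hsp90aa1.2 and 5.98 ± 3.03 FPKM for hsp90aa1.1. The FPKM of hsp90aa1.2 at the high dose was 40.0 ± 5.37 (SD, n = 3), still a small part of the hsp90ab1 level. How alike the sequences of hsp90aa1.1 and hsp90aa1.2 are was not measured here. Reads that fit both copies could be lost or misassigned in counting, and both values are uncertain to that extent.

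Among 21 tested genes of the Hsp90 machinery, the Hsp90 proteins with their co-chaperones, 15 had a positive log2 fold change, against 49.5% of all genes. Their median was 0.07, and 2 of 21 were higher at p under 0.05, beside 1.07% of all genes. The list holds hsp90aa1.2, which was named for its p in these same libraries, so that share is a description only. Besides hsp90aa1.2, the gene at p under 0.05 was fkbp4, an immunophilin that joins Hsp90 in steroid receptor complexes. Its level was 62.1, 77.9, 102, 70.6 and 60.4 CPM in the controls and 96.2, 92.0 and 117 CPM at the high dose, so that control 3 lay among the treated libraries. Its log2 fold change was 0.45 (SE 0.20). The co-chaperone p23, from ptges3a, had 45.2 to 74.0 CPM in controls and 71.5, 76.6 and 99.9 CPM at the high dose, a log2 fold change of 0.42 (SE 0.19). Without high-dose library 3, the list's median was 0.03.

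Hsp70 genes, their Hsp40 partners, small heat shock proteins and related genes had a median of 0.03 over 26 tested genes, 15 of them positive, and the median was -0.03 without high-dose library 3. The heat-inducible hsp70l stood at the top of this list, and it was picked out after its values were seen because its mean count of 40.9 is under the limit for named genes. It had 1.02, 1.55, 3.203, 0.903 and 2.58 CPM in the controls and 3.93, 5.17 and 7.21 CPM at the high dose. The groups did not overlap, and the log2 fold change was 1.55 (SE 0.48). Of the 26 genes, hsp70l alone had all treated libraries above all controls (1.39% of all genes), and 1 gene not named here had them all below (1.08%). At the other end of the list by log2 fold change lay hspa14, an Hsp70 relative that works at the ribosome, also picked out after its values were seen, with a mean count of 15.5. It had 2.92, 4.22, 0.620, 0.361 and 0.129 CPM in the controls and 0.458, 0.259 and 0.160 CPM at the high dose. The difference was -2.45 on the log2 scale (SE 1.11), at p under 0.05 but with control 5 under all treated libraries. The Hsp40 gene dnajb1a had 1.72 to 5.70 CPM in controls and 4.45, 10.0 and 5.04 CPM at the high dose, which overlap. The transcription factor of the heat shock response, hsf1, had a log2 fold change of 0.01 and the constitutive hspa8 one of -0.04.

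Another gene, zgc:122979, was also chosen after its values were seen. The files annotate it with a DnaJ C-terminal domain, the domain of Hsp40 co-chaperones, and it is a gene on chromosome 21. Its level was 86.9, 74.9, 65.2, 114 and 92.0 CPM in controls and 146, 171 and 193 CPM at the high dose, without overlap. The log2 fold change was 0.97 (SE 0.20), and at the low dose it was -0.01 (SE 0.22). CT573065.1, a processed transcript on chromosome 20 whose end lies 156.7 kb from the start of hsp90aa1.2, had a like pattern and was likewise chosen after its values were seen. It had 25.6 to 39.2 CPM in the controls and 61.0, 53.7 and 71.6 CPM at the high dose, a log2 fold change of 0.88 (SE 0.18). It was the only gene of 10 tested within 250 kb of hsp90aa1.2 to reach p under 0.05, beside 2.00% of all genes. The median of the 10 was -0.01.

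**Figure D2:**
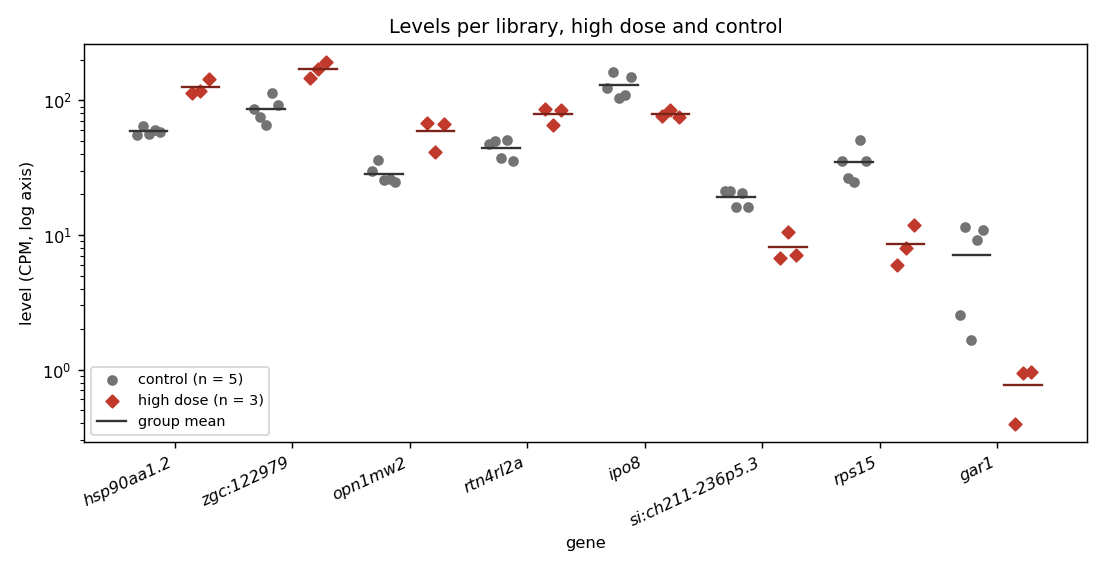
Level in CPM (log axis) of 8 genes in the 5 control libraries (grey circles) and the 3 high-dose libraries (red diamonds), 1 point a library, with bars at the group means. The groups do not overlap for any of these 8 genes, which were shown because they had the smallest p values or belong to the chaperones, the retina or the ribosome; hsp90aa1.2 had the tightest controls.

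**Figure D3:**
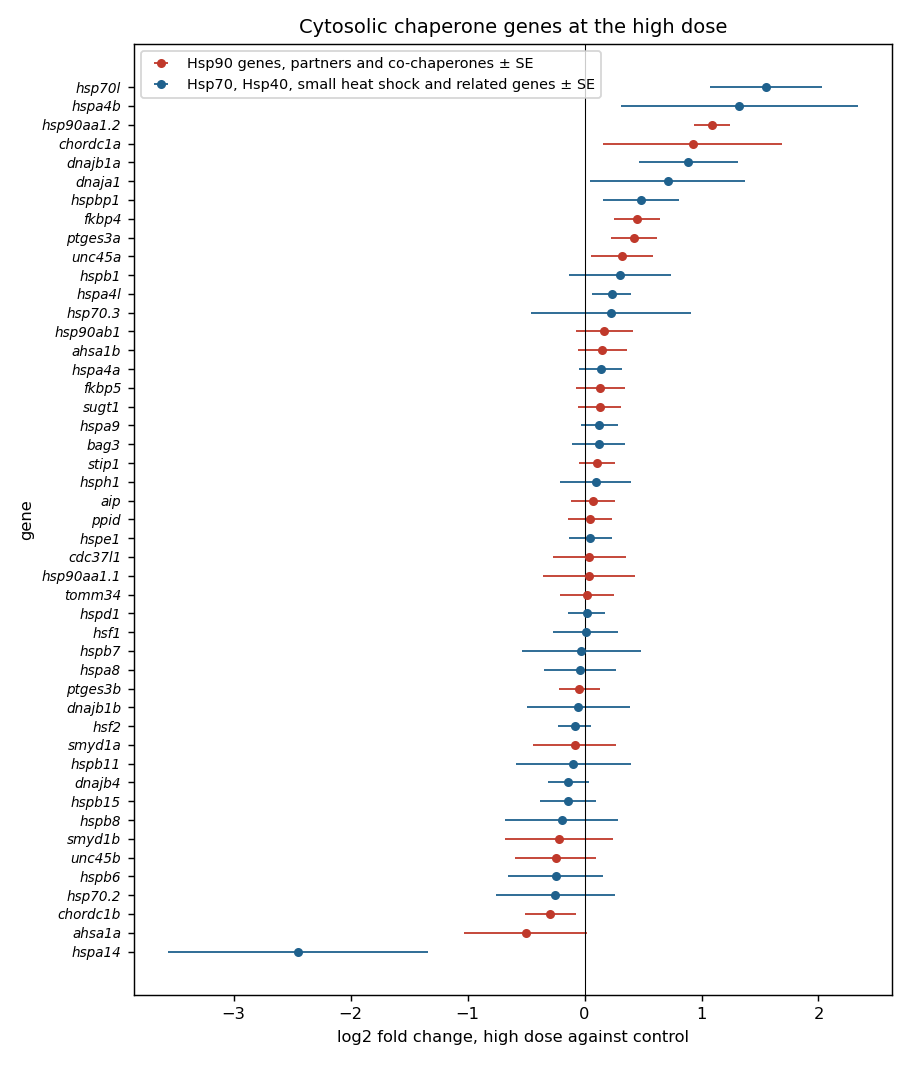
Log2 fold change of the high dose against the control, with SE as bars, for the tested genes of the Hsp90 list (red) and of the Hsp70, Hsp40 and small heat shock list (blue). Most genes lie within 0.5 of 0, while hsp70l at 1.55 and hsp90aa1.2 at 1.09 lie to the right and hspa14 at -2.45 lies to the left, each with bars clear of 0.

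Genes of the ER unfolded protein response, a separate branch of protein quality control, had a median close to that of the Hsp70 list. Of 27 tested, 16 were positive and the median was 0.04. None reached p under 0.05, beside 2.00% of all genes. Genes of the glucocorticoid stress axis, which held the receptors, hormones and steroid enzymes along with receptor targets, had 18 of 22 positive with a median of 0.25. Their list score, the mean log2(CPM + 0.5) of the members less the control mean, was 0.16, 0.32 and 0.44 in the high-dose libraries and -0.24 to 0.17 in the controls. tsc22d3, the glucocorticoid-induced leucine zipper, had 134 to 225 CPM in controls and 196, 198 and 240.6 CPM at the high dose, a log2 fold change of 0.33 (SE 0.19). The gluconeogenic pck1 had a log2 fold change of 0.44 (SE 0.32), with high-dose library 1 at 139 CPM, under 4 of the 5 controls, and the other two at 292 and 284 CPM. Without controls 2 and 3 the median of this list was 0.09.

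Among higher genes with a standard symbol and a mean count of at least 50, the next smallest p was that of a photoreceptor gene. The green cone opsin opn1mw2 had 30.0, 36.3, 25.5, 26.1 and 24.6 CPM in controls and 68.0, 41.7 and 67.1 CPM at the high dose. No treated library overlapped a control, although high-dose library 2 came near control 2. Its log2 fold change was 1.05 (SE 0.21). It lay between 0.93 and 1.24 with each library left out.

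All 7 tested visual opsins had a positive log2 fold change, with a median of 0.39, beside 49.5% positive over all genes. Of the 7, 2 were higher at p under 0.05, beside 1.07% of all genes. The first, opn1mw2, was named for its p in these same libraries, so that share is a description only. The blue cone opsin opn1sw2 was the second, at 14.1 to 37.5 CPM in controls and 24.4, 30.9 and 45.6 CPM at the high dose. Control 5 lay above 2 of the 3 treated libraries, and the log2 fold change was 0.75 (SE 0.34), or 0.47 without high-dose library 3. The more abundant green opsin opn1mw1 had 542, 234 and 525 CPM at the high dose, so that library 2 was under all 5 controls, which spanned 265 to 472 CPM. Over the opsins the list median was 0.69 without high-dose library 2 and 0.21 without library 3.

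The transduction cascade behind the opsins showed smaller values in the same direction. Of 46 tested genes 38 were positive, the median was 0.18 and 2 were higher at p under 0.05, beside 1.07% of all genes. These were pde6ga, the inhibitory subunit of the rod phosphodiesterase, at a log2 fold change of 0.75 (SE 0.25), and guca1c, a guanylate cyclase activator, at 0.53 (SE 0.24). guca1c had 22.7 to 55.8 CPM in controls and 56.0, 56.4 and 54.5 CPM at the high dose, so that only control 2 reached the treated level. High-dose library 2 gave the lowest score of the 3 for this list, -0.03, beside 0.31 in both others, and the controls spanned -0.37 to 0.46. Visual cycle genes, which regenerate the chromophore, had 14 of 19 positive and a median of 0.10.

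Lens genes, most of them crystallins, the packed proteins of lens fibres, had mostly negative values. Of 48 tested, 4 were positive and the median was -0.57. This value turned on control 2: its lens score was 1.39, against -1.09 to 0.58 in the other controls and -0.48 to 0.12 at the high dose. Without control 2 the median was 0.06, and without controls 2 and 3 it was 0.43. crygm2d3 shows the pattern, with 86.0 CPM in control 2, 9.28 to 26.2 CPM in the other controls and 17.2, 6.205 and 8.89 CPM at the high dose. Its log2 fold change was -1.54 (SE 0.67), and -0.72 without control 2.

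Glutamate receptor genes had 9 of 33 positive and a median of -0.08, which was 0.05 without control 2. Voltage-gated channel genes had 24 of 55 positive and a median of -0.08, which was 0.12 without control 1. One gene of the neuronal surface stood near the top by p. rtn4rl2a, which encodes a relative of the Nogo receptor for inhibitors of axon growth, had 47.1, 50.2, 37.1, 51.1 and 35.8 CPM in controls. At the high dose it had 85.9, 65.2 and 85.3 CPM, above every control. Its log2 fold change was 0.83 (SE 0.18), and it was 0.76 to 0.95 with each library left out.

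The Nogo receptors with their ligands and co-receptors had 13 of 16 members positive and a median of 0.12, which was 0.03 without control 3. Among the 49 lists described here this list alone had all 3 high-dose scores (0.19 to 0.25) above all control scores (-0.27 to 0.11). Of single genes, 1.39% lay above every control. The list holds rtn4rl2a, which was named for its p in these same libraries, so its score is a description only. The second Nogo receptor-like gene, rtn4rl2b, had 29.8 to 35.9 CPM in controls and 39.6, 44.6 and 35.3 CPM at the high dose, a log2 fold change of 0.30 (SE 0.16). The myelin ligand mag had a log2 fold change of 0.34 (SE 0.21).

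Other neuronal genes were among the 12 with the smallest p. adgrb1b, an adhesion receptor of synapses, had 144 to 211 CPM in controls and 264, 261 and 290 CPM at the high dose, a log2 fold change of 0.59 (SE 0.17). pvalb6, a parvalbumin that buffers calcium, had 5.79 to 9.86 CPM in controls and 16.3, 12.9 and 13.6 CPM at the high dose. In both genes the groups did not overlap. sh3glb2b, of the endophilin family of membrane-bending proteins, went from 2.78 to 8.37 CPM in controls to 11.6, 12.4 and 13.9 CPM, a log2 fold change of 1.198 (SE 0.35). Further genes among the 12 were ino80b, a subunit of a chromatin remodeller, at 0.71 (SE 0.20), and arhgef2, a guanine nucleotide exchange factor, at 0.84 (SE 0.27). The others were itih3a, a plasma protein gene, at 1.11 (SE 0.36), and ndrg1b, a stress-responsive gene, at 0.60 (SE 0.19). Of these 4 genes ino80b alone had no overlap, with 13.1 to 23.2 CPM in controls and 28.4 to 30.7 CPM at the high dose. Pan-neuronal markers as a list had 39 of 48 positive with a median of 0.09, with high-dose library 2 at -0.05 and the other two at or above 0.21, while the controls reached 0.26.

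Immediate early genes had 32 of 36 positive, with a median of 0.28, beside 49.5% positive over all genes. Of the 36, 2 were higher at p under 0.05 (1.07% of all genes), and in 3 all treated libraries lay above all controls (1.39% of all genes). fosl2, a Fos-family transcription factor, had 30.8 to 43.6 CPM in controls and 53.5, 45.3 and 56.0 CPM at the high dose, a log2 fold change of 0.41 (SE 0.17). The nuclear receptor nr4a3 had 23.5 to 34.9 CPM and 37.1, 35.9 and 48.5 CPM, and the zinc finger factor egr3 had 11.1 to 20.1 CPM and 22.1, 22.1 and 20.3 CPM. Their log2 fold changes were 0.44 (SE 0.19) and 0.47 (SE 0.22), and that of nr4a3 was 0.29 without high-dose library 3.

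The spread among controls was wide for this list. Controls 4 and 5 scored 0.57 and 0.53, as high as the treated libraries at 0.35, 0.56 and 0.37, and controls 2 and 3 scored -0.64 and -0.57. The median was 0.17 without control 2 and 0.07 without controls 2 and 3.

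Clock genes as a list had a median of 0.04, with 19 of 35 positive, and 4 of 35 were higher at p under 0.05, beside 1.07% of all genes. nr1d1, the repressor Rev-erb alpha, had 263, 333, 252, 263 and 250 CPM in the controls and 354, 374 and 378 CPM at the high dose, a log2 fold change of 0.44 (SE 0.17) without overlap. ciartb, a repressor of the clock, had 4.44 to 10.3 CPM and 11.6, 11.8 and 14.2 CPM (0.76, SE 0.30). dbpb, a clock output factor, had 46.3 to 54.0 CPM and 67.5, 56.5 and 60.1 CPM (0.34, SE 0.15), and nfil3-6 overlapped with the controls through control 2 (0.63, SE 0.28). The core repressors per1a and per1b had log2 fold changes of 0.33 and -0.01. The sources used here do not give the hour of sampling, and its part in these values was not tested.

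Among the receptors nearest to the known insect target no gene was called. Of 20 tested GABA-A receptor subunit genes 14 were positive, and the median was 0.07. None reached an unadjusted p under 0.05 in edgeR, beside 2.00% of all genes. The list median was -0.10 without high-dose library 1 and 0.28 without control 2. The list score was 0.07 to 0.47 at the high dose, within the -1.04 to 0.58 of the controls. gabra2a, an alpha subunit, had 4.75, 6.69, 0.413, 2.26 and 4.32 CPM in controls and 6.48, 4.48 and 5.68 CPM at the high dose. gabrg1, a gamma subunit, had 0.723 to 4.58 CPM in controls and 4.98, 3.88 and 4.72 CPM at the high dose. Control 3 was the lowest library for both. Their log2 fold changes were 0.58 (SE 0.59) and 0.71 (SE 0.48), and without control 3 they were 0.30 and 0.47. gabrd, the delta subunit of receptors outside synapses, had a log2 fold change of 0.35 (SE 0.21), and gabrb1 one of -0.44 (SE 0.28). The 4 tested glycine receptor genes lay between -0.08 and 0.27, and 20 genes of GABA synthesis, transport and breakdown, GABA-B receptors and related proteins had a median of -0.01.

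Genes lower at the high dose were led by rps15, a protein of the small ribosomal subunit, on chromosome 11. Its level was 35.6, 26.6, 24.6, 50.7 and 35.6 CPM in controls and 5.96, 8.01 and 11.8 CPM at the high dose. The highest treated library lay under the lowest control by more than 2-fold. The log2 fold change was -2.02 (SE 0.31), with an adjusted p of 0.267 in edgeR. With each library left out it lay between -2.31 and -1.81. Without controls 2 and 3 the adjusted p of rps15 was 0.0176 in edgeR. Those controls lay at opposite ends of the first principal component. Without them 955 genes reached an unadjusted p under 0.05 in edgeR, beside 373 with all libraries. As rps15 was chosen for its values in these same libraries, its adjusted p without those controls is a description only. Per length rps15 was low for a ribosomal protein gene, at 68.7 ± 20.7 FPKM in controls (SD, n = 5) beside a median of 1379 FPKM over the 79 ribosomal protein genes tested. The 14 tested genes within 250 kb of rps15 had a median of -0.22, none of them at p under 0.05, beside 2.00% of all genes.

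Of the 78 ribosomal protein genes tested besides rps15, 9 were positive, the median was -0.11 and the values spanned -0.94 to 0.57. The lowest p among them was that of rps27a, a fusion of ubiquitin with a ribosomal protein, named after its values were seen. It had 163, 236, 267, 171 and 216 CPM in the controls and 106, 148 and 144 CPM at the high dose, a log2 fold change of -0.67 (SE 0.21) without overlap. No other of the 78 reached p under 0.05, beside 2.00% of all genes. With rps15 included, the list score was -0.58 in high-dose library 1 and 0.05 and 0.07 in the others, and the controls spanned -0.49 to 0.68. Without control 3, which had the highest score, the median over all 79 was 0.08.

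gar1, which encodes a protein of the H/ACA particles that guide pseudouridylation of ribosomal RNA, had 2.56, 11.5, 1.65, 9.12 and 10.9 CPM in controls. At the high dose it had 0.393, 0.948 and 0.961 CPM. The groups did not overlap, but controls 1 and 3 were several-fold below the other controls. The log2 fold change was -3.23 (SE 0.73), and it lay between -3.48 and -2.89 with each library left out. Genes of small nucleolar particles and ribosome assembly as a list had 8 of 36 positive and a median of -0.10, which was 0.02 without high-dose library 1.

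si:ch211-236p5.3 on chromosome 17, which the files annotate with a NACHT domain, had 21.3, 21.4, 16.1, 20.5 and 16.2 CPM in controls and 6.75, 10.6 and 7.05 CPM at the high dose. The log2 fold change was -1.23 (SE 0.24), without overlap, and its 8 tested neighbours within 250 kb lay between -0.17 and 0.93. A further gene of the NLR family of cytosolic immune sensors, nlrp16, had 8.04, 1.62, 6.61, 9.66 and 3.87 CPM in controls and 1.31, 1.55 and 1.201 CPM at the high dose, which just cleared control 2. Its log2 fold change was -2.13 (SE 0.56).

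The remaining genes of the 12 lower ones had varied roles. ipo8, an import receptor, had 123, 163, 104, 110 and 149 CPM in controls and 76.4, 84.4 and 75.1 CPM at the high dose, a log2 fold change of -0.72 (SE 0.19). The list of nuclear transport genes had 16 of 29 positive and a median of 0.05. asb4, a substrate adaptor of ubiquitin ligases, had 15.2 to 27.2 CPM and 10.09, 13.4 and 9.53 CPM (-0.93, SE 0.26). dcps, which clears mRNA caps, had 13.9 to 19.3 CPM and 10.3, 11.1 and 9.85 CPM (-0.68, SE 0.21). In these 3 genes the groups did not overlap.

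nrf1, an activator of nuclear genes for the mitochondrial respiratory chain, had 54.7 to 67.4 CPM in controls and 45.6, 45.4 and 37.6 CPM at the high dose, a log2 fold change of -0.52 (SE 0.16). The 90 tested nuclear genes of the respiratory chain and its assembly had a median of -0.03 with 34 positive, and the 13 genes encoded by mitochondrial DNA had one of -0.03. acss1, a mitochondrial acetyl-CoA synthetase, had a log2 fold change of -1.23 (SE 0.36), with 3.94 to 7.03 CPM in controls and 1.98 to 2.88 CPM at the high dose. cyp46a1.1, of the family that turns brain cholesterol into 24-hydroxycholesterol, had a log2 fold change of -1.43 (SE 0.45), with 4.75 to 13.2 CPM in controls and 1.92 to 3.86 CPM at the high dose. cbr1, a carbonyl reductase, had one of -0.60 (SE 0.19). The last of the 12 lower genes were camkvb, a kinase-like gene of neurons, at -0.94 (SE 0.27), and lmo7a, which encodes a LIM domain protein, at -1.01 (SE 0.31), and in both the groups overlapped. Genes of cholesterol synthesis had a median of 0.05 over 26 genes.

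Genes of xenobiotic metabolism showed no common direction. Phase I enzymes with their receptors and regulators had 23 of 42 positive with a median of 0.03, and conjugating enzymes with Nrf2 and its antioxidant targets had 29 of 58 with a median of 0.00. cyp1a, the marker of the dioxin receptor, had 3.17 to 16.7 CPM in controls and 5.57, 15.7 and 8.89 CPM at the high dose. Its log2 fold change was 0.34 (SE 0.49), and -0.14 without high-dose library 2. Of the 42 phase I genes, 2 were lower at p under 0.05, beside 0.929% of all genes, and none was higher. All treated libraries lay below all controls for 2 of the 42 (1.08% of all genes) and above them for none. Of the latter 2, cyp2ad3 had tight controls, at 258, 275, 295, 289 and 282 CPM. At the high dose cyp2ad3 had 207, 219 and 204 CPM, a log2 fold change of -0.41 (SE 0.15) without overlap.

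The list with the largest median held plasma proteins made by the liver, with a few other liver genes. Of 53 tested, 48 were positive, the median was 0.84, and 8 reached p under 0.05, all higher (beside 1.07% of all genes). No member had all treated libraries above all controls, beside 1.39% of all genes. Prothrombin, from f2, had 11.6, 5.35, 21.4, 11.8 and 9.67 CPM in controls and 12.2, 26.4 and 33.6 CPM at the high dose. The complement gene c3a.1 had 9.15 to 56.0 CPM in controls and 28.8, 77.9 and 87.7 CPM at the high dose. In both, high-dose library 1 lay within the controls and libraries 2 and 3 above them. The log2 fold changes were 1.01 (SE 0.40) and 1.21 (SE 0.48).

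The list score followed that split, at -0.08, 1.07 and 1.23 in high-dose libraries 1 to 3. Among controls it was -0.84 in control 2 and 0.83 in control 3, with the other three between -0.07 and 0.10. The median was 0.55 without high-dose library 3, 1.22 without library 1 and 0.95 without controls 2 and 3. Apolipoproteins and lipid transport genes had 16 of 21 positive and a median of 0.24, with apoa1b at 137 to 1025 CPM in controls and 432, 1343 and 1816 CPM at the high dose. For apoa1b the log2 fold change was 1.26 (SE 0.54), or 0.83 without high-dose library 3. The list's median was 0.05 without high-dose library 3.

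Other organs in the trunk gave the same ends in the controls. Exocrine pancreas genes scored -0.96 in control 2 and 1.08 in control 3, with -0.24, 0.69 and 0.51 at the high dose and a median of 0.30, which was 0.06 without high-dose library 2. Fast muscle genes scored -1.33 in control 2 and 0.64 in control 3, and their median was -0.02 over 49 genes. Intestinal genes scored -0.80 and 0.72 in these controls, with a median of 0.12. These ends were not particular to organs of the trunk. Ribosomal protein genes scored -0.49 in control 2 and 0.68 in control 3, and proteasome genes -0.68 and 0.53. GABA-A receptor genes ran the other way, at 0.58 in control 2 and -1.04 in control 3, as did glutamate receptor genes at 0.44 and -0.57. The part of organ content in the liver, pancreas and muscle values was not tested.

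Of the 49 fast muscle genes, 3 were higher at p under 0.05, beside 1.07% of all genes, and 1 was lower, beside 0.929%. For each of the 3 higher genes, high-dose library 3 was the highest library. tnni2a.1, a fast troponin I gene, had 3.07 to 8.06 CPM in controls and 7.86, 11.98 and 21.9 CPM at the high dose, a log2 fold change of 1.47 (SE 0.38). High-dose library 2 also lay above every control, and without high-dose library 3 the value was 0.98. The myosin heavy chain genes myhb and myhz1.1 had log2 fold changes of 0.90 and 1.11, and both had 0.32 without that library. The list holds a further tested entry named myhz1.1, whose value is not reported here. The lower gene, pvalb2, a muscle parvalbumin with a mean count of 21.5, was named after its values were seen. It had 1.02, 0.282, 1.55, 0.361 and 7.73 CPM in controls and 0.262, 0.259 and 0.641 CPM at the high dose. Its log2 fold change was -2.49 (SE 1.12), and control 5 lay far above the other controls. The heart light chain gene myl7 had 1.31 to 8.99 CPM in controls and 6.94, 9.05 and 14.9 CPM at the high dose. Its log2 fold change of 1.24 (SE 0.54) was the highest of 17 tested heart muscle genes. Of the 17, 10 were positive and 7 negative, with a median of 0.09, or -0.12 without control 2.

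Innate immune and interferon response genes had mostly negative values, which depended in part on high-dose library 1. Innate immune genes had 5 of 27 positive and a median of -0.24, and interferon response genes 7 of 22 and -0.16. High-dose library 1 and control 2 had the lowest innate scores, -0.59 and -0.61, while the other treated libraries scored 0.01 and -0.13 and the other controls 0.07 to 0.20. Without high-dose library 1 the innate median was -0.14, and without library 2 it was -0.47. The interferon scores were -0.42, 0.14 and 0.05 in high-dose libraries 1 to 3 and -0.76 to 0.49 in controls. Without high-dose library 1 the interferon median was -0.005. Proteasome genes had 7 of 39 positive and a median of -0.11, or 0.08 without high-dose library 1. Cell cycle genes had a median of 0.08 over 67 genes, and p53 and apoptosis genes one of -0.01 over 31, where casp3a reached p under 0.05 through a single library (13.6 CPM in high-dose library 1, 4.65 and 4.08 in the others, 2.85 to 5.63 in controls).

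**Figure D4:**
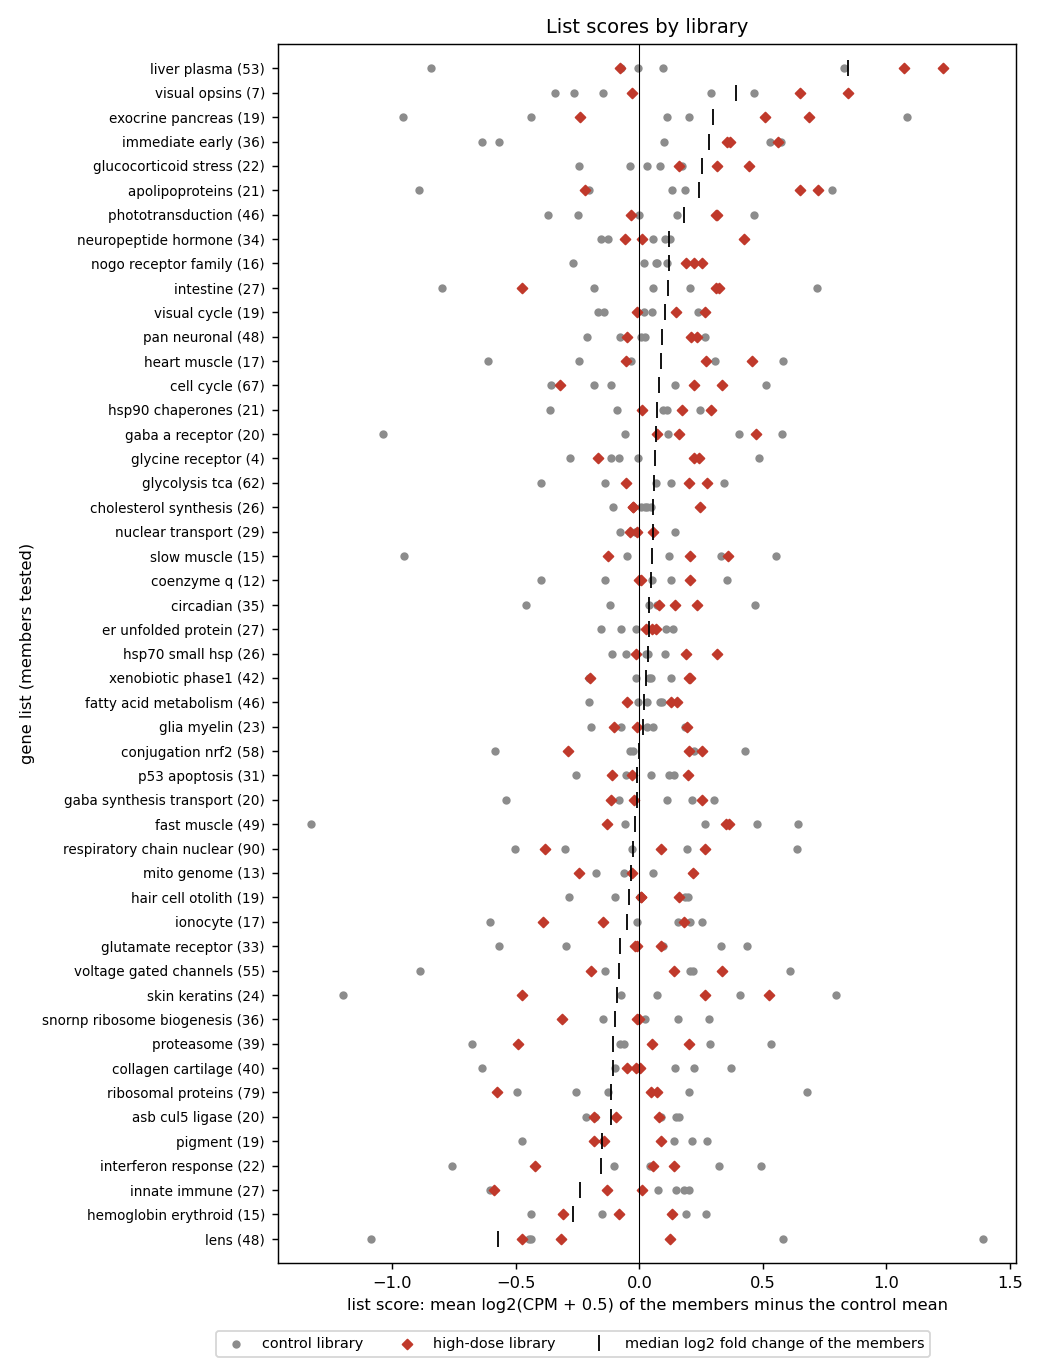
Score of each of 49 gene lists (mean log2(CPM + 0.5) of the tested members less the control mean) in 5 control libraries (grey circles) and 3 high-dose libraries (red diamonds), with the median log2 fold change of the members as a black bar. Lists are ordered by that median, from lens at -0.57 to liver plasma proteins at 0.84. Only for the Nogo receptor family do all red points lie to the right of all grey ones. That list holds rtn4rl2a, which was named for its p in these same libraries.

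At the low dose, fitted with the same 5 controls, no gene of 18811 passed an adjusted p of 0.05 in edgeR (0%), and 732 (3.89%) had an unadjusted p under 0.05. Because both doses share their controls, their values are only set side by side. For hsp90aa1.2 the low-dose log2 fold change was 0.24 (SE 0.16), beside 1.09 at 10 µg/L. rps15 had -1.46 (SE 0.28) at the low dose beside -2.02. gar1 had -0.34 (SE 0.63) beside -3.23, and si:ch211-236p5.3 had 0.36 beside -1.23. opn1mw2 had 0.17 beside 1.05, and rtn4rl2a had -0.14 beside 0.83.

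The difference between the doses was tested directly in a fit of all 12 libraries. No gene of 18786 passed an adjusted p of 0.05 (0% in edgeR), and 841 (4.48%) had an unadjusted p under 0.05, of which 456 were higher at the high dose than at the low dose (2.43%) and 385 lower (2.05%). For hsp90aa1.2 the high dose exceeded the low dose by 0.85 on the log2 scale (SE 0.17), and for rps15 the difference was -0.55 (SE 0.32), each with an adjusted p of 0.953 in edgeR. Both genes were chosen for their values in the same high-dose libraries, so these differences are a description. The median of liver plasma proteins was -0.08 at the low dose beside 0.84, that of opsins -0.34 beside 0.39, that of immediate early genes -0.26 beside 0.28, and that of the lens 0.92 beside -0.57.

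**Figure D5:**
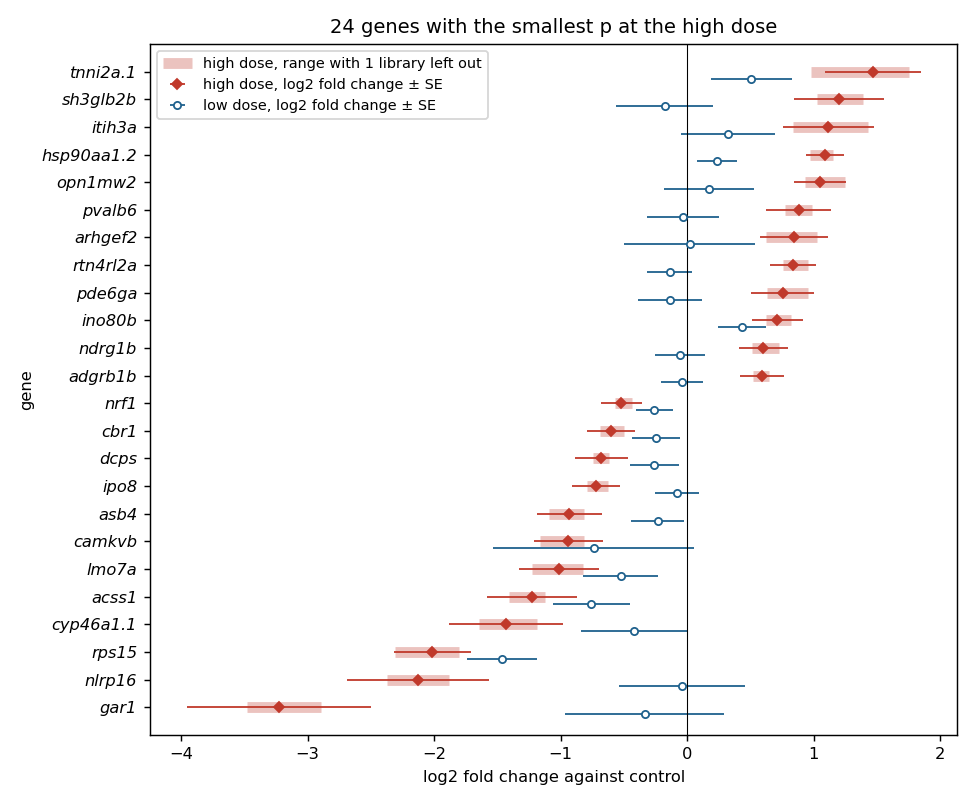
Log2 fold change against the control (horizontal axis) of the 24 genes with the smallest p at the high dose, for the high dose (red diamonds, bars are SE) and the low dose (open blue circles, bars are SE). Pale red bands give the range of the high-dose value when each of the 8 libraries is left out. No band crosses 0, but the genes were chosen for their p in these same libraries, so this is a description only. rps15 alone of the 24 has a low-dose value under -1.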

How the data were processed

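The members and gene lists were chosen with earlier results of these data known, and some lists hold genes named for their p in these libraries. Shares of list members past a threshold are therefore a description only. Poly(A) libraries were made with a directional kit, per the labels' protocols. The submitters' processing notes name the build GRCz11 and the tools HISAT2, featureCounts, fastp and DESeq2, without versions. The sources used here do not say whether counting used strand, so overlapping antisense genes may share reads. Per the file headers, the deposited high-dose table holds raw read counts per Ensembl gene, which were tested here. Its normalized signal, by the authors, is the count over a size factor of each library. The authors' deposited FPKM values were used only to compare levels between genes. The log2 fold changes and the p-values of the authors' deposited table are given only where it is named.

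Counts were fitted with edgeR 4.0.16 in R 4.3.3 (quasi-likelihood, TMM, prior count 0.125) for genes whose mean count was 10 or more, and adjusted by Benjamini-Hochberg over all genes at a threshold of 0.05. The 6830 genes under that mean were left out. SE is the log2 fold change over the square root of F. The biological coefficient of variation was 36.8%. The code was tested on simulated counts. No test was run on lists or on list scores, which used a pseudocount of 0.5 CPM.

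Named genes were the 12 higher and the 12 lower with the smallest p, a standard symbol and a mean count of at least 50, genes called by another tool or the authors, up to 4 members per list, and 8 fixed names, hsp90 genes and cyp1a among them; values of some listed genes are not reported here. Alternatives were DESeq2 size factors, DESeq2 1.42.0, limma 3.58.1 with quality weights, a minimum mean count of 50, no count filter, a prior count of 5, all 12 libraries, a replicate block, each library left out, and controls 2 and 3 left out. Deviations of same-numbered libraries from their group means had correlations of 0.18, -0.26 and 0.26. These values do not settle whether libraries were paired, and numbers were not taken as pairs.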

Additional observations from a re-analysis of the deposited data

Results flagged for a closer look

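Values of 94 named genes, 49 list scores and 3 library measures were searched among the 5 controls for a library far from the rest, and 11 of 146 had one. The limit used is passed by about 1 in 20 groups of independent, normally spread values. Here CPM were not put on a log scale and the lists hold many of the named genes, so that share is no baseline for the 11. Control 2 stood apart for the lens gene crygm2d3 (86.0 CPM, others 9.28 to 26.2), for crygm2d7 (21.5 CPM, others 0.511 to 5.79) and for nr1d1 (333 CPM, others 250.2 to 263). It also stood apart in the scores of cholesterol synthesis (-0.11, others 0.01 to 0.05) and innate immune genes (-0.61, others 0.07 to 0.20). Control 3 stood apart for itih3a, a plasma protein gene (7.75 CPM, others 3.94 to 4.96), for apom (54.4 CPM, others 12.5 to 23.5), for the ribosomal protein gene rps12 (347 CPM, others 62.7 to 145) and in the Nogo receptor family score (-0.27, others 0.02 to 0.11). Control 5 stood apart for the cone opsin opn1sw2 (37.5 CPM, others 14.1 to 19.1) and in its total count (15491747, others 11721400 to 12569279).

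The log2 fold change of rps12 was -0.94 over all libraries and -0.28 without control 3. For crygm2d7 it was -1.88 over all libraries and -0.47 without control 2.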

How the results depend on the processing

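The count of genes past the adjusted threshold was 0 in edgeR with DESeq2 size factors, either other count filter or the replicate block. It was also 0 in all 12 libraries and with each library left out (0 to 0). Between the doses the count was 0 with DESeq2 size factors and with each library left out, the only alternatives run for it. Against the control, the count was 4 in DESeq2, 2 in limma and 1 without controls 2 and 3, where the gene was rps15. Genes at an unadjusted p under 0.05 numbered 373, and 572 with no count filter, 748 in limma, 955 without controls 2 and 3, and 170 (without high-dose library 3) to 805 (without control 2) with 1 library left out. The share of these genes that were higher was 53.6% in the main test, 42.7% in DESeq2, 45.8% with its size factors in edgeR and 70.25% with the block. The replicate block, which leaves controls 4 and 5 without a partner, gave 279 such genes, and the numbers were not taken as pairs. Genes without overlap numbered 459, and 715 to 1271 with 1 library left out; fewer libraries make overlap less likely by construction. Leaving out libraries for this count and for the difference between the doses was chosen after seeing the data.

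Of 1596 log2 fold changes of 94 named genes, 1581 kept their direction and side of the threshold, 7 came past it and 8 reversed. Reversed were hsp90aa1.1, at -0.06, -0.17 and -0.00 without controls 1, 2 and 4 and -0.16 without high-dose library 2, and cyp1a at -0.14 without that library; with 1 library left out hsp90aa1.1 reached 0.32 and cyp1a 0.79. Without controls 2 and 3, crygm2d7 was 0.49, crygmxl2 0.38 and crygm2d17 0.10. The cause was not tested. List medians were less stable: 14 of 49 kept their sign under every alternative. The median of all genes moved by -0.02 with DESeq2 size factors and in DESeq2, by 0.03 in limma and by 0.05 with the block. Depth limits low genes most: the median SE was 0.64 at a mean count of 10 to under 50 and 0.20 in the class of highest counts.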
